A study of Mus musculus with 12 samples.

Results

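The replication-dependent histone genes are described here in mouse CD4+ T cells: the loci whose symbol begins with Hist1h, Hist2h, Hist3h or Hist4h. They are 67 genes on 73 rows, of 23228 symbols on 23700 rows, and are defined by their symbols, with no measured value in the rule. The Hist1 cluster on chromosome 13 holds 53 of them, the Hist2 cluster on chromosome 3 holds 10, the Hist3 cluster on chromosome 11 holds 3, and Hist4h4 lies alone on chromosome 6. By class, 6 encode the linker histone H1, 18 encode H2A, 18 encode H2B, 12 encode H3 and 13 encode H4. One of the H2B loci, Hist3h2bb-ps, carries a pseudogene suffix in its name.

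Messenger RNA was sequenced in 10 libraries of C57BL/6J cells from spleen and lymph nodes, all derived from sorted naive CD4+CD44-CD25-CD62L+ T cells. The wild-type libraries are 1 of freshly isolated naive cells, 1 each of Th1, Th2 and Th17 cultures, and 3 of iTreg cultures (induced regulatory T cells). The other 3 libraries are iTreg cultures labelled Bach2KO, from cells deficient in the transcriptional repressor Bach2, and the series asks how these differ from wild type (WT). Every culture lasted 3 days on plate-bound anti-CD3 and anti-CD28 at 10 ug/ml each. Th1 cultures received IL-12 at 20 ng/ml and anti-IL-4, and Th2 cultures IL-4 at 20 ng/ml and anti-IFN-γ. Th17 cultures received IL-6 at 20 ng/ml, human TGF-β1 at 2 ng/ml and both neutralizing antibodies, and iTreg cultures IL-2 at 100 IU/ml and human TGF-β1 at 5 ng/ml. Each neutralizing antibody was at 10 ug/ml. The way the deficient allele was made is not given in the sources used here, nor whether the 3 libraries of a genotype came from separate mice or cultures, so p-values measure the spread between these libraries, which may be technical. Chromatin immunoprecipitation of Bach2 was done in 1 WT iTreg sample against its input.

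Replication-dependent histone genes supply the core and linker histones that package newly made DNA, and they are transcribed chiefly in S phase. They have no introns, and their mRNAs normally end at a short hairpin, the histone stem-loop, in place of a poly(A) tail. Stem-loop binding protein (SLBP) holds that hairpin, and a cleavage complex cuts a few bases beyond it. Some of these genes can also be read through to a polyadenylation signal farther downstream, mostly in cells that have stopped dividing. Naive T cells rest outside the cell cycle, and T cell receptor stimulation drives them into division.

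The stem-loop is shown first because it sets these mRNAs apart and because the deposited loci treat it unequally. In the mm9 genome, 62 of the 64 genes with a coding part in GENCODE vM1 had a 16-base stem-loop of the consensus form within 150 bases of the stop codon, between 21 and 58 bases after it. The hairpin had 8 distinct sequences, and the commonest was shared by 38 genes of Hist1, Hist2 and Hist3. In the following lines the hairpin is in capitals with 5 bases on either side, and each name is followed by its mm9 position and strand.
Hist1h2bj, chr13:22135502-22135527, plus strand: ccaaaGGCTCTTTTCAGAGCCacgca
Hist1h3c, chr13:23836911-23836936, minus strand: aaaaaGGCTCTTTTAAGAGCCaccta
Hist1h4i, chr13:22132830-22132855, minus strand: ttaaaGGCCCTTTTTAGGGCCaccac
Hist1h1c, chr13:23831376-23831401, plus strand: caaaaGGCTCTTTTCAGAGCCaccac
Hist3h2a, chr11:58768669-58768694, plus strand: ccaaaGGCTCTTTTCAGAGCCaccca
Hist3h2ba, chr11:58762846-58762871, plus strand: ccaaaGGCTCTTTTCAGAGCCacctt
Hist1h2bj, Hist1h1c, Hist3h2a and Hist3h2ba had the same hairpin, although the first of them rose most in Bach2KO cells and the last pair fell. Hist1h3c differed from these in the loop, and Hist1h4i in both stem and loop. Of the 38 genes with the commonest hairpin, 26 were higher and 4 lower in Bach2KO iTreg cells, against 41.0% and 33.6% of all loci tested. The 38 include genes too low to be tested. Hist1h2ao, Hist1h2bg, Hist1h2bp, Hist1h3a, Hist1h3h and Hist1h3i reached the mean of 0.5 FPKM needed for a test only through Bach2KO. Hist2h3c1 did so only through WT. The direction of these genes was thus fixed in advance.

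The loci on which the authors measured these genes differ in extent. For 32 genes the locus is the coding part alone and stops before the hairpin, as for Hist1h2bj. For 17 genes it runs 100 bases or more past the hairpin. Hist1h1c extends 840 bases beyond it and Hist3h2a 1487 bases. Over all loci tested, 41.0% were called higher in Bach2KO iTreg cells and 33.6% lower. Among the 32 coding-only genes, 29 were higher, 0 were lower, 1 was not called and 2 were not tested. Among the 17 extended genes, 7 were higher, 3 were lower and 7 were not tested. Within Hist1 alone, 26 of 28 coding-only genes and 7 of 13 extended genes were called higher, and the others had too low a level to be tested. A match to AATAAA, the usual polyadenylation signal, lay in the last 60 bases of 9 loci, of which 4 were higher, 3 were lower and 2 were not tested. Of the genes called, Hist1h2ba (coding-only) and Hist1h2bg, Hist1h2bp and Hist1h3f (extended) could be tested only through their Bach2KO values. Hist2h3c1 (extended) could be tested only through WT. Hist1h2bp and Hist2h3c1 are also among the loci with AATAAA. In bulk libraries, fewer cells of a kind and less RNA per cell cannot be told apart.

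Depth at these loci was low. The width of the deposited confidence interval implied a median of 5.5 reads per gene in the naive library, 5.5 in Th1, 4.6 in Th2 and 6.6 in Th17. It implied 3.3 to 4.9 in the 3 WT iTreg libraries and 21.2 to 24.4 in the Bach2KO libraries, and these figures carry counting error only. Reads of 50 bases were kept where they mapped uniquely, per the labels, and the members resemble each other closely. The share of 50-base windows of the coding part that occur in no other member had a median of 89.1% for H1, 16.7% for H2A, 20.2% for H2B, 23.8% for H3 and 29.7% for H4. It was 0% for 9 genes, among them Hist2h2aa1 and Hist2h2aa2, and 100% for Hist2h2be, Hist3h2ba and Hist4h4. Even so, Hist1h2ad, whose locus is its coding part with 0% unique windows, had 10.2 to 11.5 implied reads in WT and 50.6 or more in Bach2KO libraries, and both rows of Hist1h2bq hold the same FPKM in all 10 libraries. Values of genes with low shares can therefore hold reads of other members, and near-identical genes are not separate measurements. Levels are in FPKM, fragments per kilobase of transcript scaled to the mapped fragments of the library, and differences are on the log2(FPKM + 0.5) scale. The length used need not be the span of the locus. In naive cells Hist1h2bc, on 8282 bases, had 4.25 FPKM from 74.0 implied reads. Hist1h1c, on 1561 bases, had 32.4 FPKM from 1504.3.

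Bach2 itself checked the labels. Its level was 17.6 ± 0.35 FPKM (SD, n = 3) in WT iTreg and 3.81 ± 0.38 (SD, n = 3) in Bach2KO iTreg libraries, a difference of -2.08 (limma, adjusted p = 4.41e-06). It was 23.4 FPKM in naive cells.

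Genes of the chromosome 13 cluster were higher in Bach2KO than in WT iTreg cells. Those of chromosome 3 differed in both directions, and all 3 of chromosome 11 were lower. The summed level of the 53 Hist1 genes was 48.1 ± 4.8 FPKM (SD, n = 3) in WT and 222 ± 18 (SD, n = 3) in Bach2KO libraries, 4.63 times higher. The Hist2 sum was 25.4 ± 0.64 and 21.6 ± 1.4 FPKM, and the Hist3 sum fell from 12.9 ± 1.1 to 5.52 ± 0.65 FPKM. Hist1 genes made up 51.7% to 58.2% of histone RNA by summed FPKM in WT libraries and 87.5% to 90.5% in Bach2KO libraries.

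Across all 67 genes, 55 reached a mean of 0.5 FPKM and were tested. Of these, 46 rose, 6 fell, and the test called no change in 3. The same fit called 41.0% of 11473 loci higher and 33.6% lower. The median difference of the 55 genes was 1.72, beside 0.071 over all loci tested. Values of the genotypes did not overlap for 59 of the 67 genes, with Bach2KO above WT in 53 and below in 6. Such separation was common, at 79.4% of all loci. Of the 46 higher genes, 10 passed the low-level filter only through their Bach2KO values, and 36 were called without counting them. Under the authors' scaling 55.0% of all calls were higher, against 43.2% after quantile normalization and 37.7% with equal FPKM sums, where the median of all loci moved to -0.094 and -0.182. The Hist1 count stayed at 43 after quantile normalization and was 42 with equal sums.

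**Figure D1:**
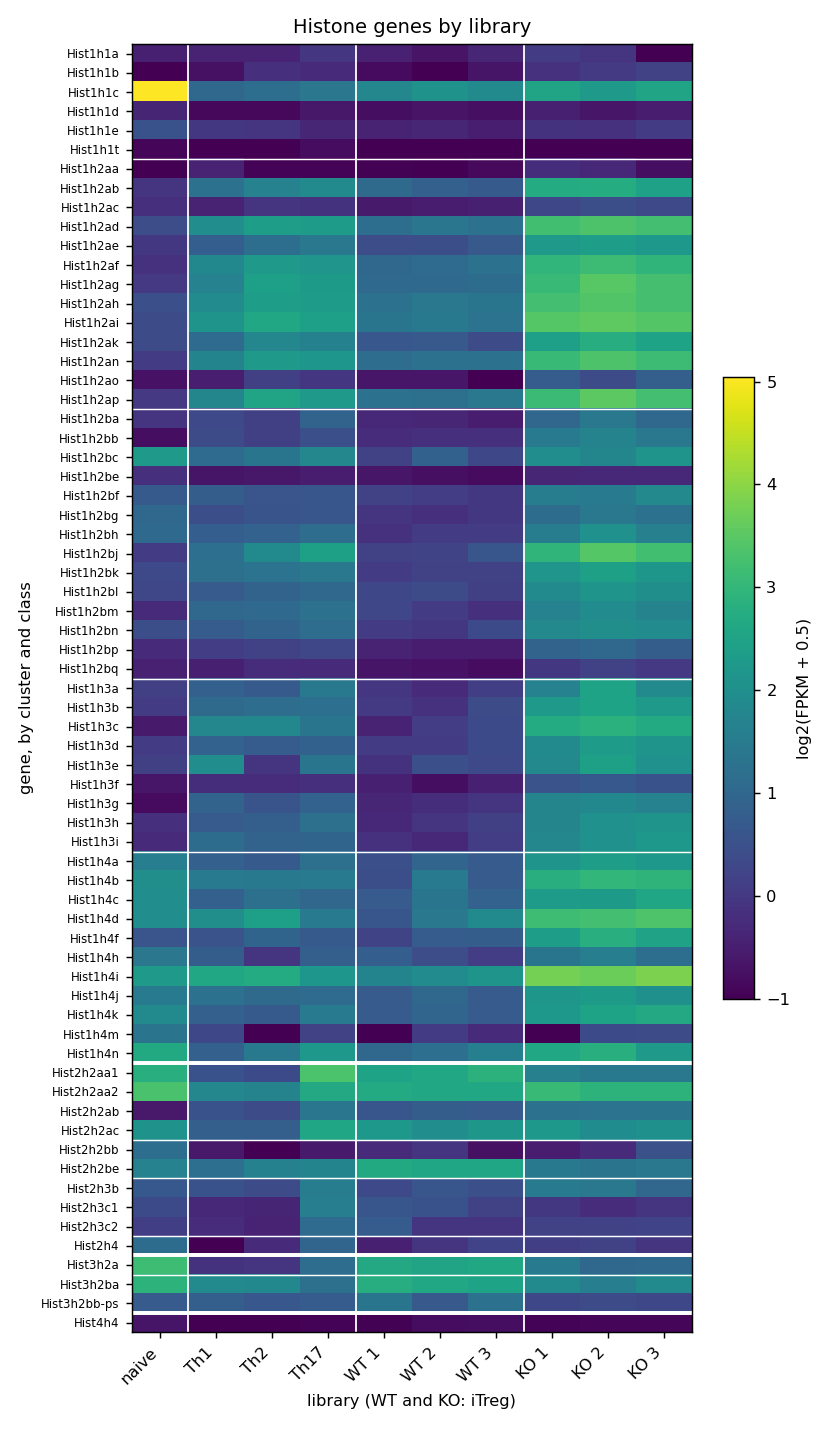
Level of each of the 67 histone genes (rows, ordered by cluster and class; thick white lines part the clusters, thin lines the classes) in the 10 libraries (columns), as log2(FPKM + 0.5) in colour. Most Hist1 rows are brightest in the 3 Bach2KO columns, Hist1h1c is brightest in the naive column, and the Hist3 rows are brighter in WT than in Bach2KO iTreg.

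All 43 Hist1 genes that could be tested were higher in Bach2KO iTreg cells, and the other 10 were under the filter. The median difference was 1.85 over the tested genes and 1.73 over all 53. Of the Hist1 core genes tested, 11 of 11 for H2A, 12 of 12 for H2B, 9 of 9 for H3 and 10 of 10 for H4 were higher. Of these, 1 H2A, 4 H2B and 5 H3 genes passed the filter only through their Bach2KO values. That fixed the direction of their difference in advance, and 33 of the 43 Hist1 calls remain without them. Over all Hist1 members of each class, tested or not, the median differences were 1.95 for H2A, 1.62 for H2B, 2.06 for H3 and 1.51 for H4. Of the 6 linker histone genes only 1 could be tested. The plot of differences by cluster shows these values beside those of the other clusters.

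**Figure D2:**
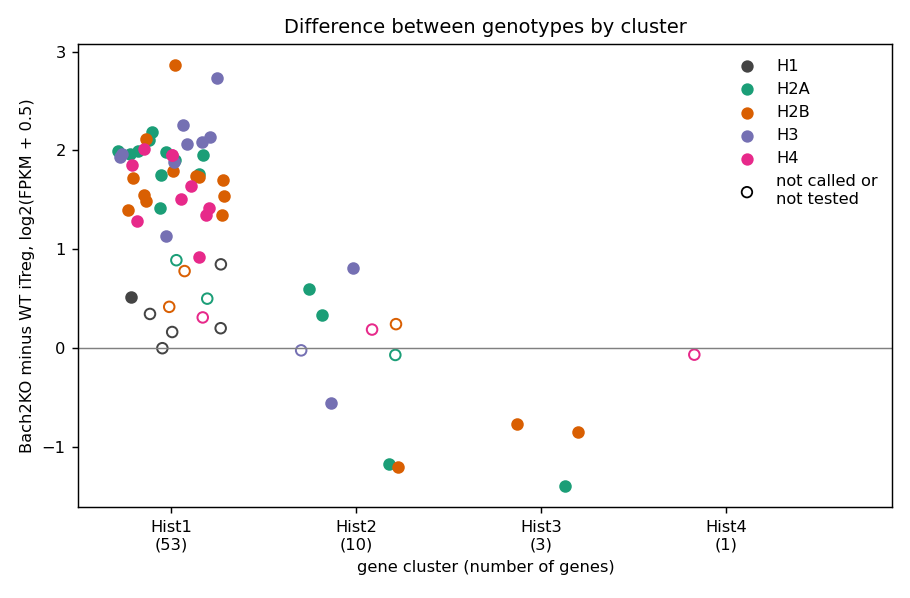
Bach2KO minus WT iTreg difference of each gene on the log2(FPKM + 0.5) scale (vertical axis) by gene cluster (horizontal axis, sideways spread for legibility only). Filled points were called by limma and open points were not called or not tested; colours mark the class. Called Hist1 genes lie between 0.51 and 2.86, whereas all 3 Hist3 genes lie below 0.

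Among H2B genes, whose product pairs with H2A in the nucleosome, Hist1h2bj (chr13:22135099-22135479) showed the largest difference of all members. It read 0.559 FPKM in naive cells, 1.83 in Th1, 3.17 in Th2 and 4.87 in Th17. The WT iTreg libraries read 0.626, 0.677 and 1.04 FPKM, and the Bach2KO libraries 7.25, 10.5 and 8.78. Every Bach2KO value lay above every other library, and WT iTreg lay next to naive. The difference was 2.86 ± 0.17 (SE, adjusted p = 2.69e-05), 11.3 times in FPKM. Only 1.8 to 4.5 reads were implied in WT libraries and 46.1 to 60.1 in Bach2KO libraries.

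Hist1h2bc (chr13:23776068-23784349) is an H2B gene whose locus spans 8282 bases. It was highest in naive cells among all libraries, at 4.25 FPKM, with 1.68 in Th1, 2.04 in Th2 and 2.97 in Th17. It read 0.647, 1.32 and 0.747 FPKM in WT iTreg and 3.39, 2.89 and 3.9 in Bach2KO iTreg. The genotypes did not overlap, and Bach2KO stayed below naive. The difference was 1.49 ± 0.20 (SE, adjusted p = 0.000754). Hist1h2bp, with a locus of 1726 bases, read 0.256, 0.196 and 0.191 FPKM in WT and 1.39, 1.56 and 1.22 in Bach2KO iTreg. It was 0.332 in naive cells and 0.571 to 0.721 in the helper cultures. Hist1h2bp is among the genes that passed the filter only through Bach2KO.

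Among H2A genes, Hist1h2ai (chr13:21808291-21808683) had the smallest adjusted p of any member. It read 0.795 FPKM in naive cells, 3.88 in Th1, 5.57 in Th2 and 4.79 in Th17. It read 2.06, 2.21 and 1.95 FPKM in WT iTreg and 10.4, 11.1 and 10.3 in Bach2KO iTreg. The order was naive, WT iTreg, helper cultures and Bach2KO iTreg, with a difference between genotypes of 2.11 ± 0.064 (SE, adjusted p = 2.59e-06). Hist1h2ah followed, with 0.884 FPKM for naive cells, 3.26 for Th1, 4.72 for Th2 and 4.45 for Th17, then 1.91, 2.19 and 2.06 in WT and 8.97, 10.1 and 9.12 in Bach2KO iTreg. Hist1h2ap read 0.502, 2.91, 5.26 and 4.2 FPKM in the same 4 single libraries, 1.9, 1.85 and 2.17 in WT and 8.17, 11 and 8.99 in Bach2KO iTreg. These H2A genes kept the same order of groups. Hist1h2ap is flagged as having too little data in the deposited tables, lies inside the Hist1h2ao locus and shares all its 50-base windows with other members, so its level is uncertain.

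Among H3 genes, Hist1h3c (chr13:23836911-23837390) rose most. It read 0.181 FPKM in naive cells, 3 in Th1, 3.01 in Th2 and 2.04 in Th17. WT iTreg libraries read 0.264, 0.564 and 0.788 FPKM and Bach2KO libraries 6.04, 6.8 and 5.94, a difference of 2.73 ± 0.20 (SE, adjusted p = 5.2e-05). WT iTreg thus lay between naive and helper cells, and Bach2KO above all of them. Hist1h3b had 0.553 FPKM for naive cells, 1.63 for Th1, 1.75 for Th2 and 1.79 for Th17, then 0.513, 0.406 and 0.793 in WT and 4.2, 5.22 and 4.29 in Bach2KO iTreg. Hist1h3d read 0.553, 1.36, 1.2 and 1.32 FPKM in those single libraries, 0.556, 0.56 and 0.775 in WT and 3.12, 4.46 and 3.89 in Bach2KO iTreg. Hist1h3e was uneven among helper cultures, at 3.37 FPKM in Th1, 0.448 in Th2 and 2.07 in Th17, and read 0.61 in naive cells. It read 0.427, 0.881 and 0.751 FPKM in WT and 3.06, 4.88 and 3.69 in Bach2KO iTreg, so the genotypes stayed apart. Of the 9 Hist1 H3 genes, 5 passed the filter only through their Bach2KO values.

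H4 genes differed from the others in their naive level. Hist1h4i (chr13:22132685-22133221) was the most abundant H4 gene, at 4.29 FPKM in naive cells, 5.56 in Th1, 6.06 in Th2 and 4.04 in Th17. It read 2.83, 3.25 and 3.85 FPKM in WT and 13.2, 12.3 and 13.9 in Bach2KO iTreg, a difference of 1.85 ± 0.11 (SE, adjusted p = 2.37e-05). Every WT iTreg library was below naive and every Bach2KO library above all others. Hist1h4d had 3.42 FPKM for naive cells, 3.44 for Th1, 4.82 for Th2 and 2.35 for Th17, then 1.03, 2.19 and 3.14 in WT and 8.51, 8.86 and 9.97 in Bach2KO iTreg. Hist1h4b read 3.46, 2.24, 2.21 and 2.32 FPKM in those libraries, 0.864, 2.33 and 1.16 in WT and 6.47, 7.45 and 7.14 in Bach2KO iTreg. Both varied by over 2-fold among the WT libraries and still did not overlap between genotypes.

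Hist1h4n had 5.89 FPKM for naive cells, 1.32 for Th1, 2.22 for Th2 and 4.19 for Th17, 1.53, 1.81 and 2.55 in WT and 5.64, 6.46 and 4.33 in Bach2KO iTreg. It has a second row, flagged as having too little data, that differed by up to 1.76 FPKM and overlaps Hist1h4m by 312 bases. Hist1h4m was 2.0 FPKM in naive cells and at most 0.803 in any culture, with 0.293 ± 0.27 (SD, n = 3) in WT and 0.527 ± 0.46 (SD, n = 3) in Bach2KO iTreg, under the filter. Neither gene has a coding window of its own, so their levels are uncertain.

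**Figure D3:**
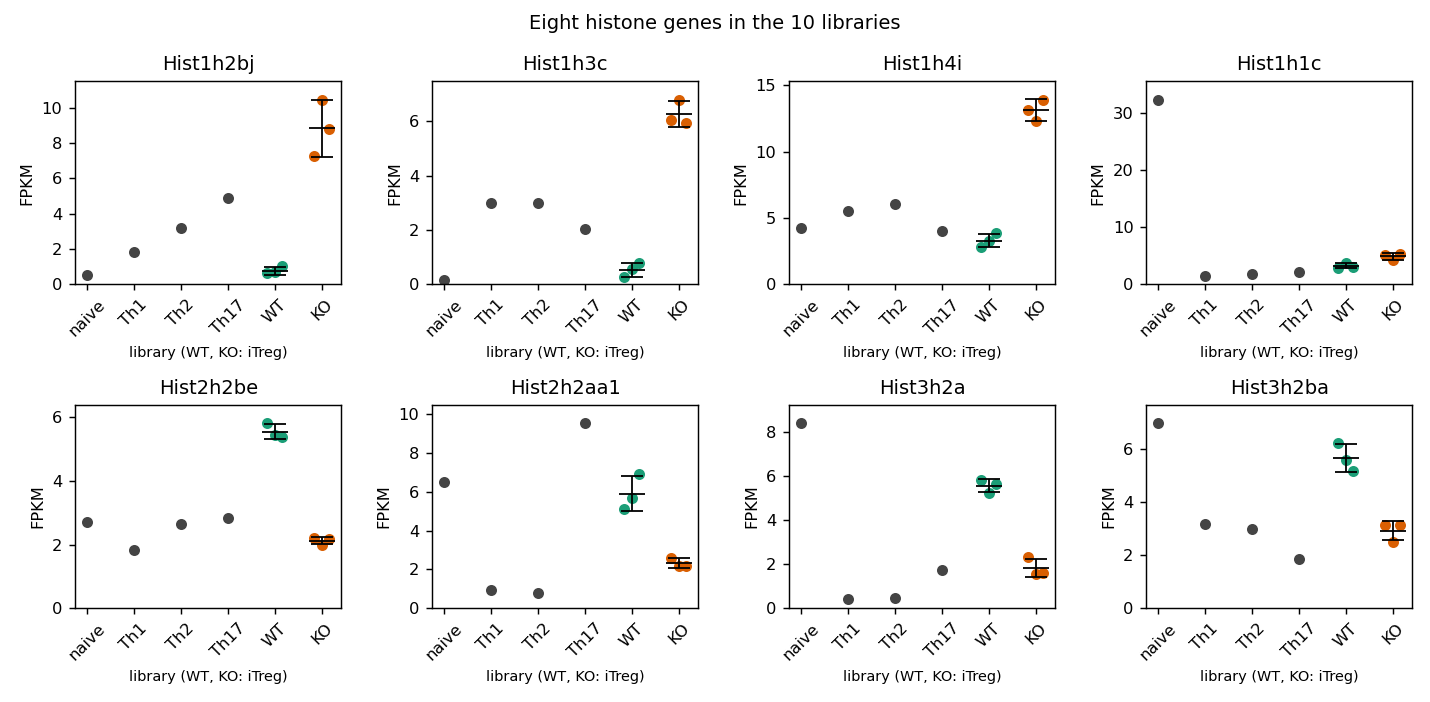
FPKM (vertical axes from 0, separate scales) of 8 histone genes in each library; grey points are the single libraries, green WT iTreg and orange Bach2KO iTreg, with black bars for mean ± SD of 3 libraries. Hist1h2bj, Hist1h3c and Hist1h4i are highest in Bach2KO iTreg, Hist1h1c in naive cells, and Hist2h2be, Hist2h2aa1, Hist3h2a and Hist3h2ba are lower in Bach2KO than in WT iTreg.

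The linker histone gene Hist1h1c (chr13:23830676-23832236) had the highest level of any member in any library, in naive cells. It read 32.4 FPKM there, from about 1504 implied reads, and 1.55 in Th1, 1.77 in Th2 and 2.13 in Th17. WT iTreg libraries read 2.94, 3.79 and 3.13 FPKM and Bach2KO libraries 5.24, 4.21 and 5.26. All cultures lay far below naive, and the genotypes did not overlap. The difference between genotypes was 0.51 ± 0.12 (SE, adjusted p = 0.00879), the smallest of the Hist1 genes called. It was 0.27 with equal FPKM sums and no longer called (adjusted p = 0.0962). Its single gene accounted for most of the H1 share of histone RNA in naive cells, 24.9% by summed FPKM, against 2.15% to 4.91% in the cultures.

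The other H1 genes were low everywhere. Hist1h1e was 0.928 FPKM in naive cells and 0.281 to 0.489 in the helper cultures, then 0.263, 0.285 and 0.208 in WT and 0.420, 0.407 and 0.545 in Bach2KO iTreg, so it was highest in naive cells and the genotypes did not overlap. Hist1h1b was listed at 0 in naive cells, was 0.101 to 0.396 FPKM in the helper cultures, and was 0.0676, 0 and 0.132 FPKM in WT and 0.408, 0.523 and 0.627 in Bach2KO iTreg. Hist1h1a read 0.217 FPKM in naive cells, 0.256 to 0.473 in the helper cultures, 0.233, 0.119 and 0.284 in WT and 0.552, 0.45 and 0 in Bach2KO iTreg, so the genotypes overlapped. Hist1h1t, known as a testis linker histone, was listed at 0 in all 6 iTreg libraries.

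Outside chromosome 13 the genotypes differed in both directions. Of the 12 Hist2 and Hist3 genes tested, 3 rose and 6 fell, and their median difference was -0.31. All 3 Hist3 genes fell. The 6 that fell are 2 H2A genes, 3 H2B genes and 1 H3 gene. Hist2h4, the H4 gene there, was not called (0.19, adjusted p = 0.418).

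Hist3h2a (chr11:58768187-58770176) showed the largest fall. This H2A gene was 8.41 FPKM in naive cells, 0.423 in Th1, 0.447 in Th2 and 1.75 in Th17. WT iTreg libraries read 5.8, 5.23 and 5.64 FPKM and Bach2KO libraries 2.32, 1.57 and 1.59. The naive library was highest, WT iTreg came next, and Bach2KO lay near Th17. The difference was -1.40 (SE 0.14, adjusted p = 0.000181). About 289 to 327 reads were implied in WT and 86.2 to 151 in Bach2KO libraries, and 87.8% of its coding windows were unique among members.

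Hist3h2ba (chr11:58762413-58763032), an H2B gene of the same cluster, read 6.99 FPKM in naive cells, 3.17 in Th1, 3.01 in Th2 and 1.85 in Th17. It read 6.24, 5.58 and 5.19 FPKM in WT and 3.15, 2.5 and 3.13 in Bach2KO iTreg. Bach2KO values lay within the range of the helper cultures, and WT values between them and naive. The difference was -0.85 ± 0.11 (SE, adjusted p = 0.000575). Hist3h2bb-ps read 1.15 FPKM in naive cells, 1.07 to 1.26 in helper cultures, 2.06, 1.12 and 1.89 in WT and 0.731, 0.821 and 0.749 in Bach2KO iTreg, a difference of -0.76 (adjusted p = 0.0102).

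Hist2h2be (chr3:96025044-96027661) is an H2B gene with a locus of 2618 bases, and no consensus stem-loop was found within 150 bases of its stop codon. It read 2.7 FPKM in naive cells, 1.82 in Th1, 2.63 in Th2 and 2.83 in Th17. WT iTreg libraries stood highest at 5.82, 5.43 and 5.39 FPKM, and Bach2KO libraries read 2.2, 1.99 and 2.18. Bach2KO cells were thus close to the other 4 libraries, and WT iTreg cells apart from them. The difference was -1.20 (SE 0.066, adjusted p = 1.87e-05), with 407 to 444 implied reads in WT and 157 to 195 in Bach2KO libraries.

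Hist2h2aa1 (chr3:96043639-96044216) and Hist2h2aa2 (chr3:96043781-96044173) are H2A genes that share 393 bases of locus and have no coding window of their own. Hist2h2aa1 had 6.49 FPKM for naive cells, 0.942 for Th1, 0.786 for Th2 and 9.55 for Th17, 5.13, 5.69 and 6.93 in WT and 2.61, 2.2 and 2.18 in Bach2KO iTreg. Hist2h2aa2 read 9.44, 2.99, 2.76 and 5.77 FPKM in those single libraries, 5.95, 5.61 and 5.61 in WT and 8.09, 7.04 and 7.04 in Bach2KO iTreg. The overlapping loci thus moved in opposite directions, by -1.18 (adjusted p = 0.000245) and 0.34 (adjusted p = 0.00501). Hist2h2aa2 is flagged as having too little data, and with equal FPKM sums its difference was 0.087 and not called (adjusted p = 0.32). Neither level can be read on its own.

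Hist2h3c1, an H3 gene with a locus of 1825 bases, was highest in Th17 cells at 2.49 FPKM, with 0.78 in naive, 0.292 in Th1 and 0.273 in Th2. It read 1.03, 0.927 and 0.624 FPKM in WT and 0.489, 0.35 and 0.433 in Bach2KO iTreg, a difference of -0.55 (adjusted p = 0.0158). Without WT replicate 2 it was -0.51 and not called (adjusted p = 0.0527), and it passed the filter only through WT. The H3 gene Hist2h3b rose by 0.81, from 0.898 ± 0.13 to 1.97 ± 0.41 FPKM (SD, n = 3). The H2A gene Hist2h2ab rose by 0.60, from 1.13 ± 0.091 to 1.96 ± 0.027 FPKM (SD, n = 3). Hist2h2ac was not called, at 3.89 ± 0.41 and 3.69 ± 0.43 FPKM (SD, n = 3), nor was Hist2h3c2. Hist4h4 was at most 0.131 FPKM in any library and was not tested.

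Activated helper cultures and WT iTreg cells were then set beside the single naive library, with no replicate of naive, Th1, Th2 or Th17 cells and hence no test. Among 54 members with a mean of 0.5 FPKM over the 10 libraries, 17 were at least 2-fold above naive in Th1 cells, 17 in Th2 and 23 in Th17, against 5 in all 3 WT iTreg libraries. Over all 11697 such loci the shares were 27.8% for Th1, 26.2% for Th2, 23.5% for Th17 and 13.5% for WT iTreg. At least 2-fold below naive were 12 members in Th1, 11 in Th2, 4 in Th17 and 5 in WT iTreg, where 9.36%, 11.2%, 7.01% and 2.90% of all loci were. The members' share below naive was larger than that of all loci in Th1, Th2 and WT iTreg and close to it in Th17.

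The direction against naive differed by class of histone. Of 15 H2A genes, 9 were at least 2-fold above naive in Th1, 11 in Th2, 11 in Th17 and 5 in WT iTreg, while 4, 4, 1 and 0 were at least 2-fold below. Those below are all Hist2 or Hist3 genes: Hist2h2aa1, Hist2h2aa2, Hist2h2ac and Hist3h2a in Th1 and Th2, and Hist3h2a in Th17. H3 genes were 2-fold above in 5, 4 and 8 of 11 in Th1, Th2 and Th17 and in 0 in WT iTreg. No H4 gene was 2-fold above naive in any of them, and 5 of 12 were 2-fold below in Th1, 5 in Th2, 1 in Th17 and 2 in WT iTreg. Those in Th17 (Hist1h4m) and WT iTreg (Hist1h4m and Hist1h4n) are the pair whose levels are uncertain. Hist1h4m, counted below in each comparison, reached the mean of 0.5 FPKM through its naive value of 2.0 FPKM, which favours such a count. By cluster, the median difference in Th1 was 0.71 for Hist1, -0.69 for Hist2 and -1.03 for Hist3, and in Th17 it was 1.04, 0.52 and -1.67. The median difference from naive in Th2 cells was 1.77 for H2A, 0.22 for H2B, 0.69 for H3 and -0.80 for H4, where the median of all loci was 0.26. Hist1h1c had the lowest values, with differences of -4.004 in Th1, -3.86 in Th2, -3.64 in Th17 and -3.13 in WT iTreg cells.

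How many members pass 2-fold depends on the scaling. After quantile normalization, which moved the median of all loci from 0.34 to -0.16 in Th1, 1 member was above and 23 below naive in Th1, 8 and 21 in Th2, 8 and 14 in Th17, and 0 and 13 in WT iTreg. The order of classes stayed, with Th2 medians of 0.89 for H2A, -0.61 for H2B, -0.18 for H3 and -1.38 for H4. The sign of the H2B median flipped from above to below 0 in Th1, Th2 and Th17 after quantile normalization, and in Th1 and Th2 also with equal sums. That of the H3 median flipped in Th1, Th2 and WT iTreg after quantile normalization, and in WT iTreg also with equal sums. The Hist1 median in Th1 and Th2 likewise flipped after quantile normalization, to -0.27 and -0.12. In WT iTreg the Hist1 and Hist2 medians, at 0.001 and 0.018, became -0.78 and -0.68 after quantile normalization. With equal sums they were -0.16 and -0.20. The H2A medians stayed above 0 and the H4 medians below 0 in all 4 comparisons under the authors' scaling, quantile normalization and equal sums.

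**Figure D4:**
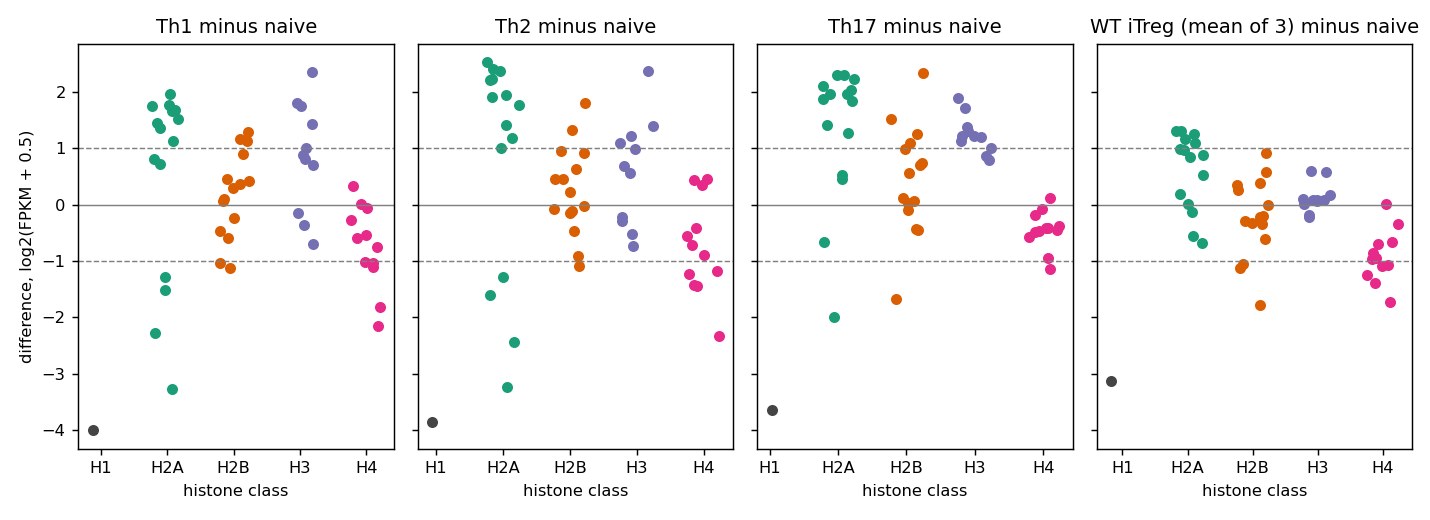
Difference from the naive library on the log2(FPKM + 0.5) scale (vertical axis) of the 54 expressed members, by class (horizontal axis), for Th1, Th2, Th17 and the mean of 3 WT iTreg libraries; dashed lines mark 2-fold. H2A points are mostly above 0, H4 points mostly below, and the lone H1 point, Hist1h1c, lies between -4.004 and -3.13.

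Bach2KO iTreg cells exceeded the helper cultures as well. Among the 54 members with a mean of 0.5 FPKM over the 10 libraries, all 3 Bach2KO libraries lay above the Th1, Th2 and Th17 libraries for 39 of 42 Hist1 genes, 1 of 9 Hist2 genes and 0 of 3 Hist3 genes, against 27.6% of all such loci. All 3 WT iTreg libraries lay below all 3 helper libraries for 31 of the 42 Hist1 genes and 0 of the Hist2 and Hist3 genes, against 31.2% of loci. The highest library was a Bach2KO one for 39 of the 42 Hist1 genes and 0 of the others, against 26.6% of loci. Some of these genes reach that mean only through their Bach2KO values, and with 1 library for each helper type the order is a description. Of all 10 Hist2 genes, 6 were highest in Th17 and 3 in naive cells.

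Genes that make and handle histone mRNA moved in both directions. Of 16 factors for histone gene transcription and mRNA processing, 10 were higher and 2 lower in Bach2KO iTreg, with a median of 0.31. Zfp473, among the 10, passed the low-level filter only through Bach2KO, at 0.298 FPKM in WT and 1.22 in Bach2KO. For this list and each list that follows, the shares over all loci tested were 41.0% higher and 33.6% lower. Slbp, which binds the stem-loop, had the smallest adjusted p of this list, from 14.7 ± 0.12 to 68.0 ± 4.8 FPKM (SD, n = 3; 2.17, adjusted p = 1.94e-06). Eri1, an exonuclease that trims histone mRNA ends, rose by 1.19, Cpsf2 of the cleavage complex by 0.85, Casp8ap2 by 0.73 and Cstf2 by 0.66. Pou2f1, the octamer-binding factor Oct-1, fell by 0.58 and the cap-binding subunit Ncbp1 fell by 0.36. Npat, a coactivator of histone genes named outside the naming rule for that role, rose by 0.35. The number lower was 5 after quantile normalization and 6 with equal sums.

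Histone chaperones, which carry histones to DNA, were higher in 16 of 20 and lower in 2, with a median of 0.89. Asf1b rose from 5.97 ± 0.82 to 70.2 ± 3.1 FPKM (SD, n = 3), and Chaf1a of the replication-coupled assembly factor from 2.76 ± 0.34 to 32.2 ± 2.5. Rbbp4 rose by 0.87 and Hat1, which acetylates new H4, by 1.89. Daxx fell by 1.01 and Cabin1 by 0.16. Among other chaperones of the replication-independent H3.3, named here after their values were seen, Hira rose by 0.42 (adjusted p = 0.000816) and Atrx was not called (-0.05, adjusted p = 0.349). The count lower was 1 with a replicate block and without WT replicate 1, WT replicate 3, Bach2KO replicate 1 or Bach2KO replicate 3.

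Histone variants outside the Hist clusters were higher in 9 of the 10 tested, with a median of 1.47. Most are made outside S phase as well from polyadenylated mRNA, and H2afx is known to make both a stem-loop and a polyadenylated form. H2afx rose from 18.6 ± 0.38 to 135 ± 1 FPKM (SD, n = 3), Cenpa, the centromeric H3, by 2.32, H1fx by 2.70, H2afz by 2.01 and H2afy by 0.94. H1fx, at 0.257 FPKM in WT and 4.41 in Bach2KO, passed the filter only through Bach2KO, which fixed its direction in advance. DNA replication genes were higher in 26 of 26, with a median of 2.72, beside 1.72 for the histone genes tested. These medians are not on an equal footing, because the added 0.5 FPKM shrinks differences more at low levels. The median level of all 67 histone genes was 0.680 to 0.808 FPKM in the WT iTreg libraries. Moreover, 11 of the 55 histone genes tested passed the filter only through their Bach2KO values. Over all 67 the median difference was 1.49. Ccna2 rose from 6.85 ± 0.1 to 96.2 ± 0.89 FPKM (SD, n = 3), Tk1 by 3.20, Rrm2 by 3.70, Gins2 by 3.15 and Rrm1 by 2.88. In naive cells Ccna2 was 0.276 FPKM. It was thus lower there than in any iTreg library, as was Hist1h2ai and unlike Hist1h4i and Hist1h1c. Not every replication gene was: Pcna was 96.8 FPKM in naive cells and 51.0 to 60.9 in WT iTreg. The 26 replication genes summed to 261 FPKM in naive cells and 274 to 321 in WT iTreg.

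RNAs known to lack poly(A) tails varied between libraries of a genotype. Of 7 found, 5 were tested, 1 was higher (Rpph1, 0.63, adjusted p = 0.0195) and 0 lower. The count higher was 0 with no filter, after quantile normalization, with equal sums, and without WT replicate 2, Bach2KO replicate 1 or Bach2KO replicate 3. Rnu73b carried most of their sum and overlapped between genotypes, at 129, 0 and 377 FPKM in WT and 111, 871 and 133 in Bach2KO iTreg libraries. Without Rnu73b, a choice made after its values were seen, the others summed to 8.41, 44.9 and 16.4 FPKM in WT and 5.37, 3.24 and 4.54 in Bach2KO libraries, which did not overlap and lay in the opposite direction to the Hist1 genes. Rnu11 made up much of this, with 0, 40.1 and 12.8 FPKM in WT and a listing at 0 in all 3 Bach2KO libraries, and was not called (adjusted p = 0.0713). Whether RNA was selected by poly(A) tail is not given in the sources used here, and the part of RNA selection in the histone values was not tested.

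Markers of other cells differed among the same libraries, where 41.0% of all loci tested were called higher and 33.6% lower. The 6 T cell markers were at 1467 to 1492 FPKM in sum in WT and 1122 to 1315 in Bach2KO iTreg, with Cd3e, Cd3d and Lck lower. The other 3 were not called, at -0.04 for Cd3g, 0.20 for Cd4 and 0.23 for Cd28. Dendritic and myeloid markers summed to 251, 33.4 and 124 FPKM in WT and 189, 159 and 167 in Bach2KO libraries, with 2 of 7 tested higher, 1 lower and 4 not called. Batf3 rose from 0.0212 ± 0.037 to 9.89 ± 4.6 FPKM and Zbtb46 from 0.235 ± 0.13 to 3.00 ± 0.54, while Itgam fell from 3.70 ± 0.60 to 0.143 ± 0.040 (SD, n = 3 each). Batf3 and Zbtb46 passed the low-level filter only through their Bach2KO values and Itgam only through WT, which fixed their directions in advance. Lyz2, Csf1r, Cd14 and Itgax were at or near 0 in both genotypes. B cell markers summed to 63.6, 11.4 and 36.2 FPKM in WT and 19.8, 13.2 and 18.6 in Bach2KO libraries, with 0 of 6 tested higher and 2 lower. Of the CD8, NK and gamma-delta markers, Cd8a and Cd8b1 were higher, and the list summed to 4.51 to 5.46 and 11.1 to 12.1 FPKM. The part of such cells in the histone values was not tested. With each library left out in turn, 44 Hist1 genes were called higher without any 1 of the WT libraries and 42 without any 1 of the Bach2KO libraries. The filter was applied anew each time, which changed the genes tested. Members tested were 55 or 56 without a WT library and 53 or 54 without a Bach2KO library.

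Promoters of these genes share motifs that the rule did not use. RefSeq promoters (GRCm38.p6, 250 bases before to 50 after the start) were matched for 60 of the 67 genes and searched on both strands. CCAAT, the box bound by NF-Y, was in 51 of 60 (85.0%), against 37.9% of 27025 promoters. TATAAA was in 35 of 60 (58.3%), against 14.2%. ATTTGCAT, the octamer bound by Oct-1, was in 13 of 60 (21.7%), against 1.75%. By class, CCAAT was in every H1, H2A, H2B and H3 promoter matched and in 3 of 12 H4 promoters. The octamer was in 7 of 17 H2A and 6 of 15 H2B promoters and in none of the H1, H3 and H4 promoters. Some H2A and H2B genes with it are neighbours on opposite strands, such as Hist1h2ae and Hist1h2bg. Their promoter windows can overlap, so the same octamer may be counted for both classes. Among matched genes it was in 8 of 42 called higher and 1 of 4 called lower.

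The 150 bases before the start are printed for the H2B gene with the largest rise and for the Hist3 H2B gene that fell, with the CCAAT, TATA and octamer matches on either strand in capitals.
Hist1h2bj (RefSeq H2bc11), GRCm38.p6 chr13:22043048-22043197, plus strand: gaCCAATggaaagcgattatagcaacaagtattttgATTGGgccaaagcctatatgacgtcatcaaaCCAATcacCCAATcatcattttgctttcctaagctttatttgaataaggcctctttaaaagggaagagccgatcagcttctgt
Hist3h2ba (RefSeq H2bu2), GRCm38.p6 chr11:58948761-58948910, plus strand: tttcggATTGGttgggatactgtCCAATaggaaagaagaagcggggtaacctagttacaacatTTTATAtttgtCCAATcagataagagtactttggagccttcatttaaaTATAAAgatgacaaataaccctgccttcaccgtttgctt
Both carried several CCAAT boxes, and only Hist3h2ba had an exact TATAAA.

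Bach2 peaks were frequent around the histone genes. Of 67 genes, 56 had a deposited peak within 10 kb of the locus, against 40.3% of all 23700 loci, and 26 were overlapped by a peak, against 26.4%. Neighbouring genes share peaks: 47 peaks lay within 10 kb of a member. By cluster, 46 of 53 Hist1, 7 of 10 Hist2, 2 of 3 Hist3 genes and Hist4h4 had a peak within 10 kb. A peak was that close to 41 of the 46 genes called higher, 4 of the 6 called lower and 2 of the 3 not called. The list comes from 1 immunoprecipitation, and its scores and enrichments are the authors'.

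The motif TGAGTCA, the core of the sites bound by Bach and AP-1 factors (TGACTCA on the other strand), was in none of the 60 promoters, against 5.17% of all promoters. It lay within 50 bases of the summit in 3 of the 47 peaks near members (6.38%), against 30.2% of all 22494 peaks. Peaks overlapping a member held it in 0 of 32, although their median enrichment of 10.5-fold was close to the 12.8-fold of all peaks. The absence of these letters from a window says nothing further about the factor.

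The 101 bases around the summits of the 3 highest-scoring such peaks clear of annotated untranslated regions are printed from mm9, plus strand, with TGAGTCA or TGACTCA in capitals.
Nearest Hist1h2ab, 877 bases from it, chr13:23841767-23841867: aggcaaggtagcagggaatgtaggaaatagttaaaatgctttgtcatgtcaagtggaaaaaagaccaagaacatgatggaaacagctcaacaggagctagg
Nearest Hist1h3g, 1405 bases from it, chr13:23629358-23629458: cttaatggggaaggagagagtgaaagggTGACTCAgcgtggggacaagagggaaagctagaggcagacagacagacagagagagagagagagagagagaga
Overlapping Hist1h2ai, chr13:21808040-21808140: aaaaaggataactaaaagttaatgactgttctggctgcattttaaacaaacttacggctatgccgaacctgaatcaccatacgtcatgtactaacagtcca
Their enrichments over input were 53.5-fold, 63.1-fold and 43.5-fold, from 121, 89 and 97 tags. The middle peak alone had the motif. Overlap and distance refer to the whole peaks, which are wider than the printed windows. The peak at Hist1h2ai (chr13:21807906-21808422) also overlaps Hist1h2bl, and its printed window does not reach the Hist1h2ai locus. Hist1h2ab rose by 1.75, Hist1h3g by 1.96 and Hist1h2ai by 2.11 in Bach2KO iTreg cells, values close to the Hist1 median.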

How the data were processed

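Per the labels, 200 ng of total RNA per library was prepared with a TruSeq kit and sequenced, and unique 50-base reads were mapped to mm9 with TopHat and summarised with Cufflinks, so the deposited unit is FPKM with its interval; the gene annotation is not given in the sources used here. Per the file headers, Bach2 peaks were called with MACS 1.4.0beta against input, and the deposited list gives a tag count, a fold enrichment ratio, a log-scaled p-value score and a false discovery rate in percent. A single peak list was deposited for 1 immunoprecipitated sample.

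Members follow from their symbols, but this gene family and the lists, and so the members described, were chosen with earlier results of these data known. Rows were joined by symbol and locus, and 1 row was kept for each of 6 repeated symbols (an OK status first, then the lower start). Bach2KO and WT iTreg libraries entered a limma fit (version 3.58.1 under R 4.3.3) of log2(FPKM + 0.5), with variances moderated by eBayes along the mean trend, over 11473 loci with a mean of at least 0.5 FPKM, two-sided, with Benjamini-Hochberg adjustment over all of them and a threshold of 0.05. On simulated data the same script was checked to recover known changes. The naive, Th1, Th2 and Th17 libraries have no replicate and were set side by side with a 2-fold threshold. Implied reads are the square of 2 times FPKM over the distance to its upper bound. Strand and coding parts came from GENCODE vM1, and all 70 coding parts found began with ATG. Members named with all values are the 4 highest of each class, those called lower, those highest in naive cells at 2 FPKM or more and up to 6 with loci over 1000 bases; from each other list up to 5 called genes by adjusted p and those going the opposite way are named. Alternatives were pseudocounts of 0.1 and 1, other filters and scalings, robust variance, a replicate block, each library left out, and other peak windows and thresholds.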

Additional observations from a re-analysis of the deposited data

How the results depend on the processing

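The counts of members higher and lower in Bach2KO iTreg stayed within 1.5 times of 46 and 6 under every alternative. The median difference of 1.72 was 2.14 with a pseudocount of 0.1, 1.36 with 1, 1.49 with no filter, 1.89 with a filter of 2 FPKM, 1.52 after quantile normalization and 1.52 with equal sums. Members at least 2-fold above and below naive in WT iTreg were 10 and 8 with a pseudocount of 0.1, 0 and 2 with 1, 0 and 13 after quantile normalization, and 3 and 8 with equal sums; leaving out each WT library in turn gave 5 to 8 below. With a pseudocount of 1, 7 were below in Th1 and 11 above in Th2. Quantile normalization gave 1 above and 23 below in Th1, 8 and 21 in Th2, and 8 and 14 in Th17. Same-numbered libraries did not deviate together (correlations of -0.038, -0.038 and 0.006), and with the replicate number as a block the counts were 46 and 6. Peaks within 5 kb touched 46 members, within 50 kb 65, and with an FDR of at most 5% 56. Of 571 values of named genes, lists and clusters under alternatives, 551 stayed the same. For a gene this means the same direction and side of the threshold, and for a count a value within 1.5 times. The called genes lost were Hist1h1c and Hist2h2aa2 with equal sums and Hist2h3c1 without WT replicate 2. For the main results, 85 values under alternatives stayed the same and 23 moved. The cause of these changes was not tested. Depth of a few reads per gene in the single libraries limits every comparison with naive.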
